A study of Mus musculus with 8 samples.

Results

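The miR-181 family was followed through cell-cycle arrest and release in fibroblasts of the NIH-3T3 line, which was derived from mouse embryos and grows without limit. Its members were taken as both arms of the 6 mouse hairpins Mir181a-1, Mir181a-2, Mir181b-1, Mir181b-2, Mir181c and Mir181d. Of the 10 mature miRNAs these hairpins can give, 9 had at least 1 read, and 7 were among the 433 mature miRNAs counted in the series. The other 3p arms, with fewer than 10 hairpin reads, were counted from their RefSeq sequence alone. The 4 miRNAs of the 5p arms and 1 of the 3p arms (miR-181c-3p) were among the 347 abundant enough to be tested.

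Small RNAs were sequenced from 8 libraries, 1 for each condition, so no condition has a replicate. In the contact experiment, cells were seeded at 12% confluency in medium with 10% serum, and the libraries are labelled asynchronous (day 0), G0 (day 3) and G0 (day 5). In the serum experiment, cultures grown in medium with 10% serum were deprived of serum for 48 h and then released with 20% serum. Counted from the release, they were harvested at 0 h (labelled G0), 12 h (G1), 16 h (S), 20 h (G2/M) and 24 h (G1). The only split of the labels that gives groups sets the 3 G0 libraries (serum 0 h, contact day 3 and contact day 5) against the other 5.

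MicroRNAs are short RNAs, cut from a hairpin precursor, that guide Argonaute proteins to messenger RNAs and lower their output. Targeting rests mainly on the seed, the bases near the 5′ end, so miRNAs with the same seed share many predicted targets. The miR-181 family is best known from lymphocytes, where miR-181a tunes the sensitivity of the T cell receptor, and its members have also been tied to TGF-beta signalling in other cells. Each hairpin yields a 5p arm, which is the main product in this family, and a 3p arm that is usually less abundant.

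The mature 5p sequences are shown because all the levels and ratios that follow rest on telling these near-identical RNAs apart. They are RefSeq sequences on GRCm38.p6, written 5′ to 3′ with the seed (bases 2 to 8) in capitals.
miR-181a-5p: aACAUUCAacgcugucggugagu
miR-181b-5p: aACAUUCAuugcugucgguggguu
miR-181c-5p: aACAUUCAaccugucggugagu
miR-181d-5p: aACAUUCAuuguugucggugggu

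All 4 carry the seed ACAUUCA and so differ only downstream of it. Counting from 1 at the 5′ end, miR-181a-5p and miR-181b-5p differ by A9U, C10U and A21G, with 20 of 23 bases identical. The sequence of miR-181d-5p differs from that of miR-181b-5p by C12U alone, with 22 of 23 bases identical. Leaving out the G at position 11 of miR-181a-5p gives miR-181c-5p. Every one of these differences except A21G lies within the first 20 bases, over which reads were matched.

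The 3p arms are shown because they name the hairpin that the shared 5p sequences of miR-181a and miR-181b cannot.
miR-181a-1-3p: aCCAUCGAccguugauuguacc
miR-181a-2-3p: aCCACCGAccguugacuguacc
miR-181b-1-3p: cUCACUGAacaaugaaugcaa
miR-181b-2-3p: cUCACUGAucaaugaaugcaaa
miR-181c-3p: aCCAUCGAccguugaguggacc
miR-181d-3p: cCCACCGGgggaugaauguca

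The 3p arms do not share 1 seed. Those of Mir181a-1 and Mir181c carry CCAUCGA, those of Mir181b-1 and Mir181b-2 carry UCACUGA, and those of Mir181a-2 and Mir181d carry CCACCGA and CCACCGG. The 3p arms of Mir181a-1 and Mir181a-2 differ by U5C, inside the seed, and U16C.

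The hairpins lie in 3 pairs on mouse build GRCm38. Mir181a-1 (chr1:137966455-137966541, plus strand) and Mir181b-1 (chr1:137966639-137966718, plus strand) are 97 bases apart within the annotated noncoding gene Gm4258, and Mir181b-1 also overlaps an exon of A430106G13Rik. Mir181a-2 (chr2:38852735-38852810, plus strand) and Mir181b-2 (chr2:38853830-38853918, plus strand) are 1019 bases apart, in an intron of the protein-coding gene Nr6a1 and on the strand opposite to it. Mir181d (chr8:84178716-84178787, minus strand) and Mir181c (chr8:84178873-84178961, minus strand) are 85 bases apart, in an intron annotated for Nanos3 on the same strand. The 5p reads of miR-181a and miR-181b therefore sum over chromosomes 1 and 2, while those of miR-181c and miR-181d come from chromosome 8 alone.

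Depth and library quality differed between the experiments. The libraries held 707202 to 8512472 reads, of which 137587 to 892534 were counted for a miRNA. Reads taken to be marker oligonucleotides made up 59.7% to 92.0% of the serum libraries and at most 0.0354% of the contact libraries. Scaling by TMM, the trimmed mean of M-values, gave factors of 1.167 to 1.434 to the serum libraries and 0.5577 to 0.8085 to the contact libraries. The order of the experiments in a level can therefore depend on the scaling. Ratios of members within a library, which need no scaling, carry the main results. The fibroblast markers (miR-199a-3p, miR-199a-5p, miR-214-3p, miR-143-3p, miR-145a-5p and miR-21a-5p) were all detected and summed to 10.3% to 32.5% of miRNA reads in the G0 libraries, against 6.04% to 25.7% in the others.

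The libraries at serum 12 h and serum 0 h stood apart in ways that touch the family. At 12 h the 462 family reads had only 11 distinct sequences. When every library was brought to 303 family reads, 9.97 distinct sequences were expected at 12 h, against 35.2 at 0 h, 53.7 at 16 h, 44.5 at 20 h and 49.98 to 50.14 in the contact libraries. The 24 h library, which had 303 family reads, held 30 distinct sequences. At serum 0 h, 27.9% of all reads held inserts shorter than 16 nt, against 0.253% to 1.83% in the other libraries. Markers of other cell types appeared there too. The epithelial miRNAs miR-200a-3p, miR-200b-3p, miR-200c-3p and miR-141-3p had 33, 143, 354 and 155 reads there, against 0 to 9 reads of any of them elsewhere. Of the blood markers, miR-142a-3p and miR-142a-5p had 62 and 45 reads at 0 h and 0 reads in the other libraries, and miR-451a had 0 to 4 reads in every library. Epithelial markers (4 of 5 with a counted arm) summed to 0.000433% to 0.288% of miRNA reads in G0 libraries and 0% to 0.00101% in the others. Blood markers (3 of 6 with a counted arm) summed to 0.000433% to 0.0450% in G0 libraries and 0% to 0.000613% in the others. Neural markers (2 of 3 with a counted arm) summed to 0.0396% to 0.0765% in G0 libraries and 0% to 0.0975% in the others. The part of other cells in the miR-181 values at 0 h was not tested. In these bulk libraries, fewer cells of a type and less RNA per cell cannot be told apart.

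**Figure D1:**
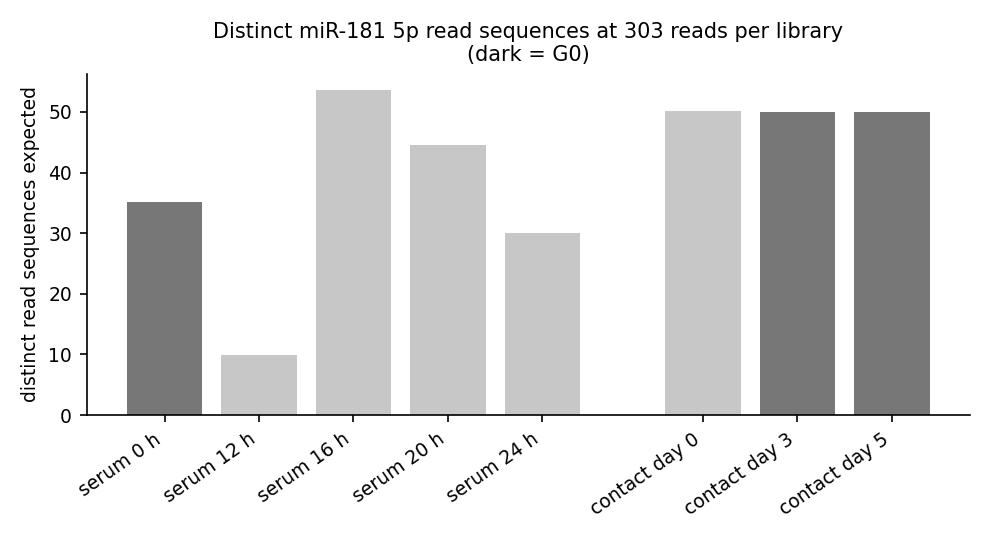
Number of distinct miR-181 5p read sequences expected in each library (y axis) when 303 family reads are drawn from it, for the 5 serum and 3 contact libraries on the x axis, with dark bars for G0. The library at serum 12 h has 9.97 distinct sequences, against 30 to 53.7 in the other 7.

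The family was a moderate part of the miRNA pool, and miR-181a and miR-181d were its main products. The 5p arms had 7516 reads in all, 0.261% of 2881278 miRNA reads. Pooled over the 8 libraries, miR-181a-5p gave 41.6% of the family (3130 reads), miR-181d-5p 33.3% (2505 reads), miR-181b-5p 17.7% (1330 reads) and miR-181c-5p 7.33% (551 reads). By mean share of miRNA reads they ranked 81, 102, 138 and 204 of 433.

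Levels of miR-181a-5p, which both the chromosome 1 and the chromosome 2 pair produce, were 1643, 1546, 859, 1002 and 1337 RPM (reads per 1000000 miRNA reads of the library) at serum 0, 12, 16, 20 and 24 h. On contact days 0, 3 and 5 they were 1297, 1157 and 779 RPM. The level was lowest at 16 h in the serum experiment and on day 5 in the contact experiment, and the G0 libraries overlapped the others. After TMM scaling the values were 1146, 1115, 736, 776 and 1019 CPM (counts per 1000000 of the scaled library size) in the serum series and 2298, 1431 and 1397 CPM in the contact series.

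Its cluster partner miR-181b-5p had 509, 222, 326, 392 and 436 RPM at serum 0, 12, 16, 20 and 24 h, and 607, 883 and 338 RPM on contact days 0, 3 and 5. The highest value was that of contact day 3 and the second G0 day, day 5, lay below day 0. The G0 libraries overlapped the others.

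On chromosome 8, miR-181c-5p had 64, 0, 95, 27 and 5 reads at serum 0, 12, 16, 20 and 24 h and 47, 130 and 183 reads on contact days 0, 3 and 5. These are 269, 0, 106, 147 and 36.3 RPM in the serum series and 144, 297 and 396 RPM in the contact series. All 3 G0 libraries lay above all other 5 on this scale, which was so for 12 of the 347 miRNAs tested, or 3.46%. After TMM scaling the groups overlapped, with 188, 367 and 709.9 CPM in the G0 libraries against 0, 91.2, 114, 27.7 and 255 CPM in the others, and no 5p member stood clear (14 of 347 miRNAs did, 4.03%).

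The other chromosome 8 member, miR-181d-5p, had 1047, 507, 674, 435 and 392 RPM at serum 0, 12, 16, 20 and 24 h, and 1030.4, 1527 and 891 RPM on contact days 0, 3 and 5. In the serum series 0 h was the highest, and in the contact series day 3 was. The G0 libraries overlapped the others, with contact day 0 above contact day 5.

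**Figure D2:**
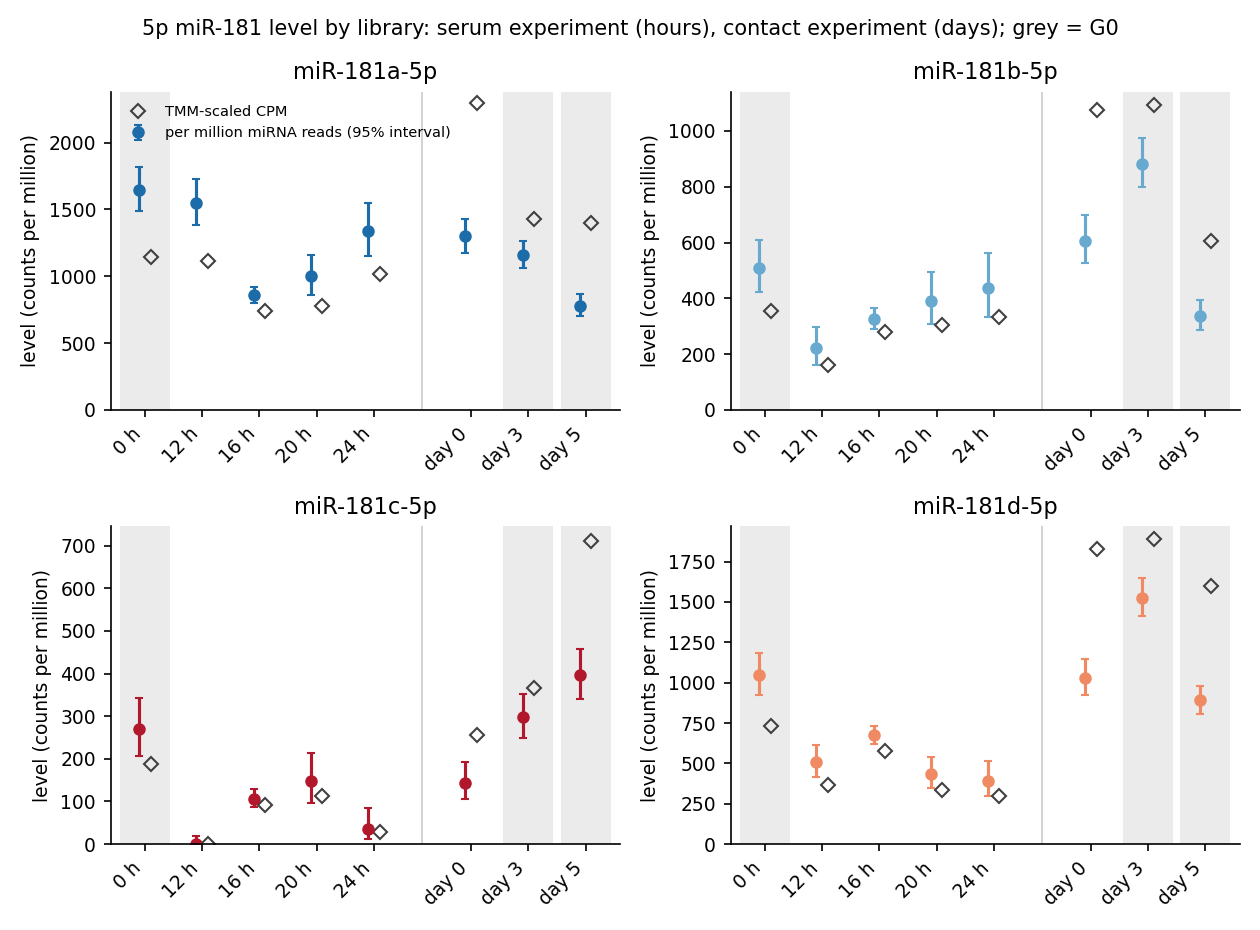
Level of each 5p member (y axes, from 0) in the 5 serum and 3 contact libraries (x axes), as RPM with 95% counting intervals (filled circles) and as TMM-scaled CPM (open diamonds), G0 libraries shaded. On the share scale miR-181c-5p has 269, 297 and 396 RPM in the G0 libraries, against at most 147 in the others.

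Across the 8 libraries no 5p member was called different between G0 and the other libraries. In edgeR's quasi-likelihood test with a term for the experiment, 3 of 347 miRNAs passed an adjusted p of 0.05, or 0.865% of those tested, and none was a miR-181 (39 miRNAs had an unadjusted p under 0.05). The median log2 fold change of all miRNAs was -0.31, and it was -0.11 when libraries were scaled by total miRNA reads. The log2 fold change of miR-181c-5p was 1.40 (SE 0.98, edgeR adjusted p = 0.628), and 1.32 without serum 0 h. It was 0.46 for miR-181d-5p (SE 0.48, adjusted p = 0.728), 0.07 for miR-181b-5p (SE 0.55, adjusted p = 0.967) and -0.13 for miR-181a-5p (SE 0.48, adjusted p = 0.889). With no experiment term these were 2.11, 1.05, 0.67 and 0.16 in the same order, none past the threshold. The signs of miR-181a-5p and miR-181b-5p turned under other settings. With total-read scaling, the log2 fold change was 0.07 for miR-181a-5p and 0.31 for miR-181b-5p, and counting reads by their first 18 bases gave -0.06 for miR-181b-5p. What these p-values measure is no more than the spread among the libraries, their different times and phases included.

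The G0 difference was not shown to be unlike between serum starvation and contact inhibition. The interaction term of the same fit called none of 347 miRNAs in edgeR (14 had an unadjusted p under 0.05), and the 4 members had adjusted p-values of 0.866 to 0.928.

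Ratios within a library set the members against each other free of scaling. The ratio of miR-181c-5p to miR-181a-5p was 0.164 in the starved library (serum 0 h) and 0.256 and 0.508 in the libraries of contact days 3 and 5. In the other libraries it was 0 at 12 h, 0.124 at 16 h, 0.147 at 20 h, 0.0272 at 24 h and 0.111 on contact day 0. The groups did not overlap, although the 95% counting intervals of serum 0 h (0.124 to 0.214) and 20 h (0.0942 to 0.221) did. Of the 346 tested miRNAs other than miR-181a-5p, 6 had a ratio to miR-181a-5p that was higher in all G0 libraries than in all others, or 1.73%. The mean log2 ratio was -1.85 ± 0.820 in G0 libraries (SD, n = 3) and -4.65 ± 2.75 in the others (SD, n = 5), a difference of 2.81 with 0.5 added to each count. In the exact 2-sided permutation test over 56 splits this gave p = 0.107, and 0.429 adjusted over the 4 ratios tested, where the smallest p possible is 0.0179. Without serum 12 h, the library with 0 reads of miR-181c-5p, the difference was 1.69, and without serum 0 h, the library with epithelial and blood markers, it was 3.19.

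The change in that ratio between single libraries was followed through the contact experiment first. Contact day 5 over day 0 gave a 4.57-fold higher ratio of miR-181c-5p to miR-181a-5p (95% counting interval 3.19 to 6.64). Contact day 3 over day 0 gave a 2.31-fold higher ratio (1.60 to 3.38). Against its neighbour miR-181d-5p, cut from a hairpin 85 bases away, miR-181c-5p had a 3.17-fold higher ratio for contact day 5 over day 0 (2.21 to 4.61). For day 3 over day 0 that ratio was 1.39-fold (0.961 to 2.03). These intervals cover counting error between 2 libraries, not the spread between cultures. The ratio of miR-181d-5p to miR-181a-5p was 1.32 on day 3 and 1.14 on day 5, against 0.794 on day 0, and it was below 1 in all serum libraries. The day 5 interval, 0.991 to 1.32, includes 1. Counting only whole inserts that match the hairpin put the ratio below 1 on both days, at 0.965 and 0.937 on days 3 and 5 against 0.617 on day 0.

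In the serum experiment the ratio of miR-181c-5p to miR-181a-5p at 0 h was close to those at 16 h and 20 h. It was 1.32-fold that of 16 h (0.925 to 1.88) and 1.12-fold that of 20 h (0.675 to 1.88), both intervals including 1. It was 6.01-fold that of 24 h (2.39 to 19.5), which rests on 5 reads of miR-181c-5p at 24 h.

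The ratio of miR-181d-5p to miR-181c-5p was 3.89 in the starved library and 5.15 and 2.25 for contact days 3 and 5. It was 6.34, 2.96 and 10.8 at serum 16, 20 and 24 h and 7.15 on contact day 0, while at 12 h miR-181d-5p had 103 reads and miR-181c-5p had 0. The groups overlapped, and the log2 difference was -1.78 (exact 2-sided permutation p = 0.268, 0.50 adjusted over 4 ratios), or -0.79 without serum 12 h.

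The ratio of miR-181b-5p to miR-181a-5p, which come as a pair from both chromosome 1 and chromosome 2, was 0.309 in the starved library and 0.763 and 0.433 for contact days 3 and 5. The other libraries had 0.143, 0.379, 0.391 and 0.326 at 12, 16, 20 and 24 h and 0.468 on contact day 0. Contact day 3 was the highest, and the groups overlapped (log2 difference 0.56, exact 2-sided permutation p = 0.375, 0.50 adjusted over 4 ratios). Counting by the first 18 bases, which takes in a 19-nt form with 90 reads at 12 h, put the ratio at 12 h at 0.426, above the 0.383 of 24 h, and the difference at 0.21. Without serum 12 h the difference was 0.27, and without contact day 3 it was 0.20. Over all libraries the ratio ran from 0.143 at serum 12 h to 0.763 on contact day 3.

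**Figure D3:**
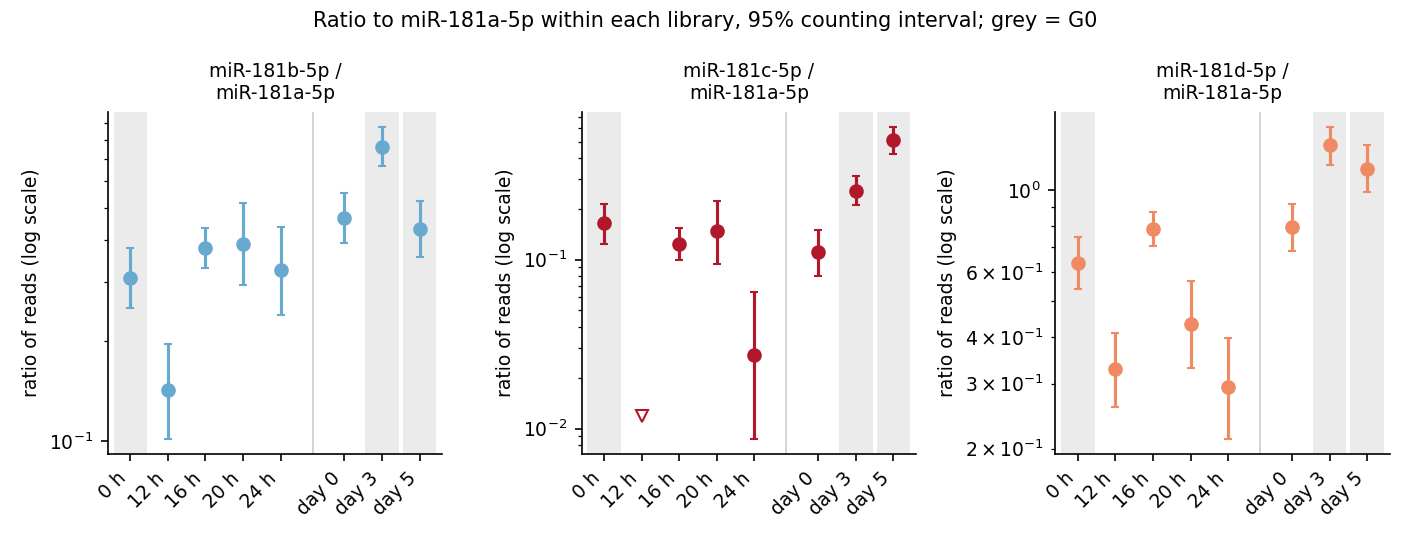
Reads of miR-181b-5p, miR-181c-5p and miR-181d-5p divided by reads of miR-181a-5p in each library (y axes, log scale) for the serum hours and contact days on the x axes, with 95% counting intervals and G0 libraries shaded; the open triangle is the upper limit where miR-181c-5p had 0 reads. The ratio of miR-181c-5p is 0.256 and 0.508 on contact days 3 and 5, against 0.111 on day 0.

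Taking the loci as pairs, the chromosome 8 pair (miR-181c-5p and miR-181d-5p) made up 38.1% of family reads on contact day 0, with a 95% Clopper-Pearson interval of 35.1% to 41.2%. Its share was 47.2% (44.8% to 49.6%) on day 3 and 53.6% (50.6% to 56.5%) on day 5. The intervals of the 3 days did not overlap, but each day is 1 library and they cover counting error only. In the serum series it was 37.9% at 0 h, 22.3% at 12 h, 39.7% at 16 h, 29.5% at 20 h and 19.5% at 24 h. The G0 library at 0 h was thus within the range of the released libraries, below 16 h and above the rest.

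In the contact series, day 5 differed from day 0 mainly in the level of the miR-181a and miR-181b pair. By TMM-scaled level the miR-181a and miR-181b pair stood at 3373 CPM on day 0, 2524 CPM on day 3 and 2002 CPM on day 5, and the chromosome 8 pair at 2081, 2256 and 2308 CPM. By share of miRNA reads the first pair had 1904, 2041 and 1116 RPM and the chromosome 8 pair 1175, 1824 and 1287 RPM. For day 3 against day 0, TMM scaling put the larger difference in the first pair and total miRNA reads put it in the second. The whole family had 3079, 3864 and 2404 RPM on days 0, 3 and 5, and 3467, 2274, 1966, 1976 and 2202 RPM at serum 0, 12, 16, 20 and 24 h.

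**Figure D4:**
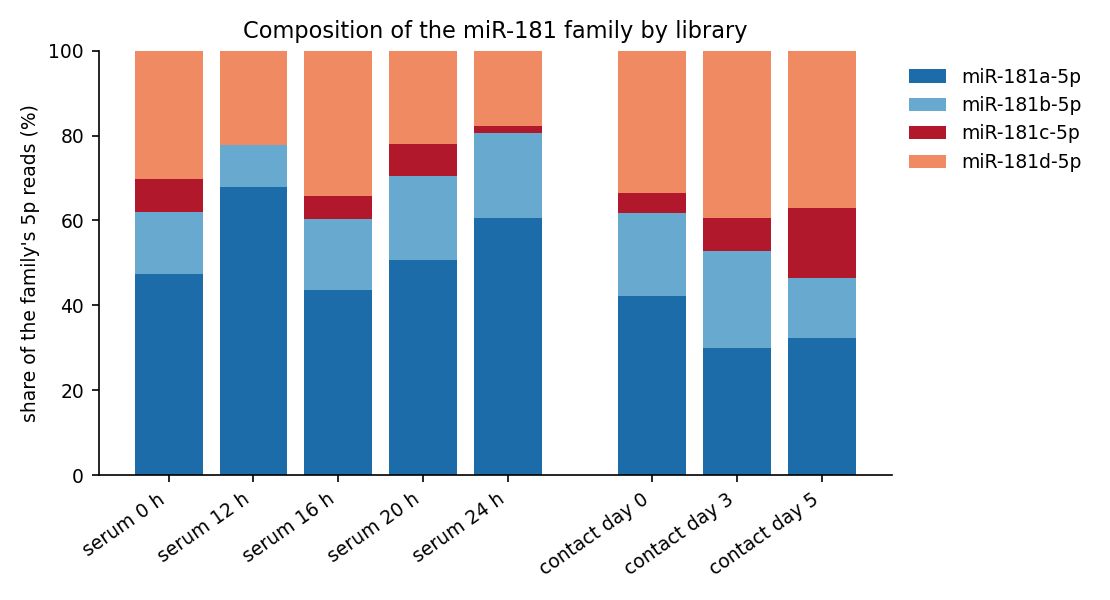
Share of the family's 5p reads (y axis, percent) given by each member in the 5 serum and 3 contact libraries on the x axis. Together miR-181c-5p and miR-181d-5p make up 38.1%, 47.2% and 53.6% on contact days 0, 3 and 5, and 37.9%, 22.3%, 39.7%, 29.5% and 19.5% along the serum series.

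Between single libraries, a member was counted as different when its TMM-scaled ratio was at least 2-fold, its counting interval excluded 1 and 1 of the libraries had at least 100 reads. Of 24 such comparisons, 4 passed, all higher in the G0 library. With DESeq2 size factors 8 passed, and not all of these were higher. No member with enough reads was called for serum 0 h over 16 h, contact day 3 over day 0 or contact day 5 over day 3. Of all miRNAs compared there, 21.0%, 39.2% and 43.9% were called in either direction. With total miRNA reads as the scaling, miR-181c-5p was called higher for day 3 over day 0 (2.06-fold) and miR-181b-5p lower for day 5 over day 3 (a ratio of 0.382). For contact day 5 over day 0, miR-181c-5p was 2.78-fold higher (2.01 to 3.92), 1 of 4 members, while 38.0% of all miRNAs compared were called higher there. On the same day miR-181a-5p was at 0.608 (0.527 to 0.701) and miR-181b-5p at 0.563 (0.453 to 0.698) of day 0. With TMM scaling both were short of 2-fold, while with DESeq2 size factors both were called lower on day 5.

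For serum 0 h over the released libraries, miR-181d-5p was 2.16-fold higher than at 20 h (1.67 to 2.82) and 2.44-fold higher than at 24 h (1.81 to 3.34). The share of all miRNAs called higher was 16.7% for 20 h and 21.7% for 24 h, with 1 of the 3 members that had enough reads called in each. Counting only whole inserts that match the hairpin gave 3.40-fold for 20 h and 3.70-fold for 24 h. The level of miR-181b-5p was 2.22-fold higher at 0 h than at 12 h (1.56 to 3.20), again 1 of 3 members, in a comparison in which 24.4% of miRNAs were called higher. That call rested on how reads were counted. A 19-nt form of miR-181b-5p had 90 reads at 12 h and 35 at 0 h. Counting by the first 18 bases, which takes it in, gave a ratio of 0.926. In the same comparison miR-181d-5p was at 2.00-fold (1.58 to 2.54), which fell short of the rule only before rounding. Scaled by total miRNA reads, miR-181d-5p was called higher at 2.06-fold (1.63 to 2.62). For miR-181c-5p, with 64 reads at 0 h and 0 at 12 h, the comparison was under the read minimum and no call was made. Its TMM-scaled ratio was 17.6 when 12 h is put at 3 counts, and its counting interval had a lower limit of 13.9. Also under the read minimum, miR-181c-5p was at 2.06-fold for 0 h over 16 h (1.47 to 2.85, 95 reads at 16 h). Over 24 h it was at 6.77-fold (2.76 to 21.6, 5 reads at 24 h).

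The 3′ ends set miR-181c-5p apart from the other 3 members. The forms that carry most of the reads are shown, with the seed in capitals, the length and the share of all reads of the member that match its first 18 bases.
miR-181a-5p, 25 nt, 25.1%: aACAUUCAacgcugucggugaguuu
miR-181a-5p, 20 nt, 20.1%: aACAUUCAacgcugucggug
miR-181b-5p, 19 nt, 22.5%: aACAUUCAuugcugucggu
miR-181b-5p, 20 nt, 20.7%: aACAUUCAuugcugucggug
miR-181c-5p, 24 nt, 61.9%: aACAUUCAaccugucggugaguuu
miR-181d-5p, 23 nt, 21.6%: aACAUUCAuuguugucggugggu
miR-181d-5p, 20 nt, 13.5%: aACAUUCAuuguugucggug

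The reads of miR-181a-5p, miR-181b-5p and miR-181d-5p fell into a long form and a short one that ends at or before the GGUG shared by all 4 sequences. Short reads were 26.2% of miR-181a-5p (24.8% to 27.8%), 45.1% of miR-181b-5p (42.8% to 47.4%) and 21.7% of miR-181d-5p (20.2% to 23.3%). Of miR-181c-5p they were 2 of 556 reads, or 0.360% (0.0436% to 1.29%), although its sequence from that point on begins with the same bases as miR-181a-5p. The intervals are Clopper-Pearson over pooled reads and cover counting error only.

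The pattern was present in library after library. Short reads of miR-181a-5p were 19.8% to 44.9% in the 8 libraries and those of miR-181b-5p 35.4% to 65.0%. Those of miR-181d-5p were 10.4% to 30.5% in 7 libraries and 0 of 103 reads at 12 h. Those of miR-181c-5p were 0% to 0.763% in the 7 libraries with a read of it, below each of the other 3 members in all 7. At serum 24 h, where it had 5 reads, that 0 allows a share of up to 52.2%.

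The share of short forms overlapped between G0 and the other libraries. For miR-181a-5p the share was 20.1% at serum 0 h and 24.9% and 32.2% on contact days 3 and 5, against 19.8%, 25.2%, 44.9% and 30.8% at 12, 16, 20 and 24 h and 23.8% on contact day 0. For miR-181d-5p it was 24.3%, 25.6% and 30.5% on contact days 0, 3 and 5, above the 10.4%, 0%, 19.9%, 12.5% and 13.3% of the serum libraries at 0, 12, 16, 20 and 24 h.

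Among the 194 miRNAs with at least 500 reads, the median share of reads 18 to 20 nt long was 2.74% (quartiles 1.04% and 9.60%). By this share miR-181b-5p ranked 8, miR-181a-5p 19, miR-181d-5p 23 and miR-181c-5p 169. Libraries did not differ widely in it, with 6.74% to 8.06% of miRNA reads in 7 libraries and 3.82% on contact day 0.

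**Figure D5:**
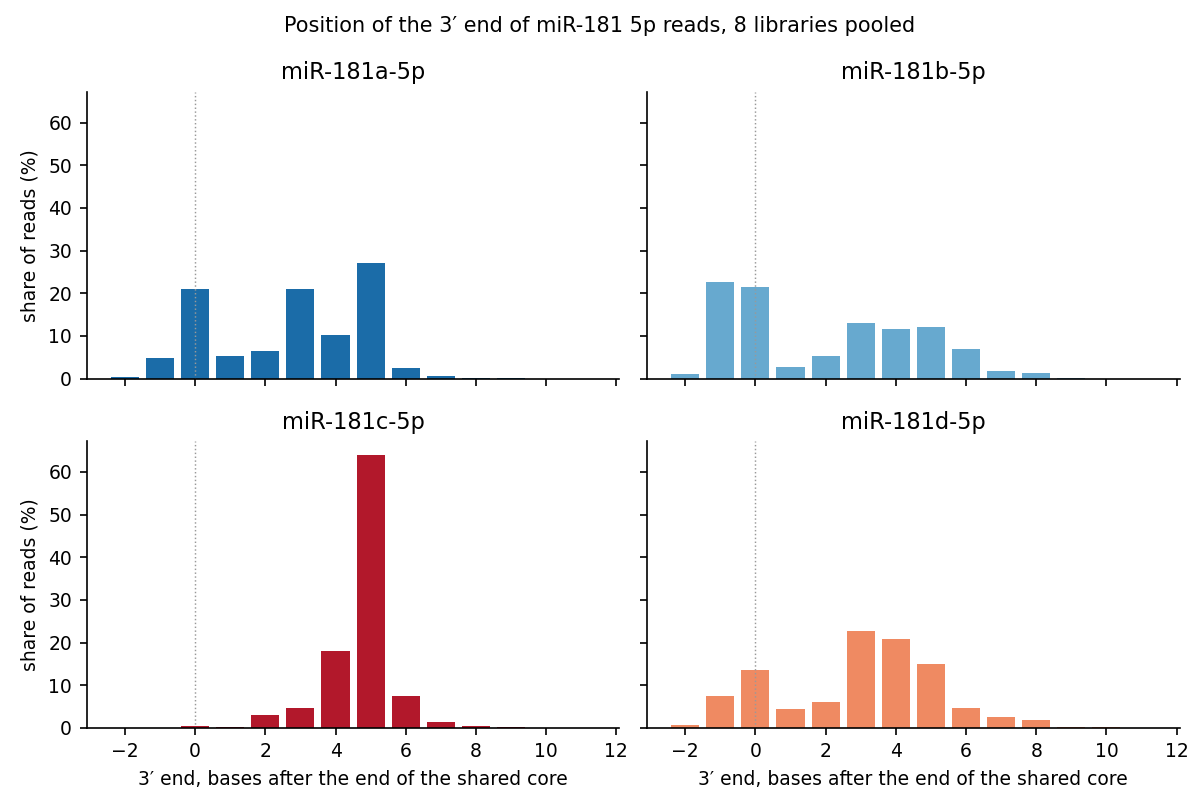
Position of the 3′ end of the 5p reads, in bases after the end of the core that the 4 members share (x axes), against the share of the member's reads over 8 libraries (y axes). For miR-181a-5p, miR-181b-5p and miR-181d-5p, 26.2%, 45.1% and 21.7% of reads end at position 0 or before, against 0.360% for miR-181c-5p.

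The 5′ ends, which set the seed, hardly varied. Of the reads that began at the RefSeq start or within 1 base of it, 98.5% began at that start for miR-181a-5p, 98.0% for miR-181b-5p, 97.0% for miR-181c-5p and 98.6% for miR-181d-5p. At the 3′ end, bases that the hairpin does not encode were seen in 6.29% of miR-181a-5p reads (5.47% to 7.20%) and 10.3% of miR-181c-5p reads (7.93% to 13.2%). They were seen in 27.4% of miR-181b-5p reads (25.1% to 29.9%) and 28.4% of miR-181d-5p reads (26.6% to 30.2%), against a median of 14.7% over the same 194 miRNAs (quartiles 7.39% and 26.6%). At serum 12 h they were 0 of 103 reads of miR-181d-5p and 4.44% of miR-181b-5p. An added base is not seen where it equals the next base of a hairpin, so these shares are lower limits. Tails made only of A were 44.1% of the tailed reads of miR-181b-5p and tails made only of U 12.1%, while for miR-181d-5p they were 28.3% and 39.8%.

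The 3p arms were rare, with 82 reads in all against 7516 of the 5p arms, or 1.08% of both. The 3p share of both arms was 0.949% for miR-181a (0.641% to 1.35%), 0.15% for miR-181b (0.0182% to 0.541%), 5.33% for miR-181c (3.65% to 7.48%) and 0.753% for miR-181d (0.454% to 1.17%). The pooled interval of miR-181c lay above those of the other 3. Its shares were 16.9%, 5.94%, 2.08%, 3.70% and 3.17% at serum 0 and 16 h and on contact days 0, 3 and 5, with no 3p read elsewhere. It was not the highest in every library. At serum 20 h miR-181d had 11.1% (5.46% to 19.5%), against 0 of 27 reads for miR-181c, and on contact day 0 miR-181a also had 2.08%.

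Single sequences made up many of these reads. At serum 0 h all 13 reads of miR-181c-3p were 1 sequence, printed here with its last base, which the hairpin does not encode, in capitals.
miR-181c-3p at serum 0 h: accaucgaccguugaguggacA

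It was also the most frequent form over the 8 libraries, with 15 of 31 reads. The log2 fold change of miR-181c-3p between G0 and the other libraries was 3.14 (SE 1.57, edgeR adjusted p = 0.465). This arm met the minimum for testing, 10 CPM in 3 libraries, through the G0 libraries alone. It had at least 11.4 RPM in each of them and at most 6.72 RPM in any other library. A positive value was thus favoured by the choice of miRNAs to test, and its sign cannot be read as a G0 difference. All 19 reads of miR-181d-3p were from 16 h (9 reads) and 20 h (10 reads), each a single sequence. The 3p arm of Mir181b-1 had 2 reads and that of Mir181b-2 had 0.

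The 3p arms that tell Mir181a-1 from Mir181a-2 had too few reads to resolve the loci by condition. The arm of Mir181a-2 had 8, 5 and 2 reads on contact days 0, 3 and 5, and that of Mir181a-1 had 1, 2 and 2. In the serum series the Mir181a-2 arm had 2 reads, both at 16 h, and the Mir181a-1 arm had 4 at 16 h and 4 at 20 h, the last 4 being 1 sequence. No read of either was seen at 0, 12 and 24 h.

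Mir181a-2 thus gave 75% of these reads in the contact libraries (15 of 20, 50.9% to 91.3%) and 20.0% in the serum libraries (2 of 10, 2.52% to 55.6%). The intervals overlapped slightly, which does not show equal shares, and the difference was not tested. The intervals take reads as independent, yet 4 of the 8 Mir181a-2 reads on contact day 0 were 1 sequence. The log2 ratio of the arm of Mir181a-2 to that of Mir181a-1 was 0.68 higher in G0 libraries than in the others (exact 2-sided permutation p = 0.661, 0.661 adjusted over 4 ratios), a value set partly by the 0.5 added where both were at 0. Without serum 20 h it was -0.03.

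The members differed in their pattern over the libraries. With log2 levels (TMM-scaled CPM plus 10) centred within each experiment over the 8 libraries, Pearson's r was 0.52 between miR-181c-5p and miR-181d-5p, 0.47 between miR-181b-5p and miR-181c-5p and 0.32 between miR-181b-5p and miR-181d-5p. It was 0.11 between miR-181a-5p and miR-181b-5p, 0.09 between miR-181a-5p and miR-181d-5p and -0.42 between miR-181a-5p and miR-181c-5p. These are descriptions, since the points share libraries and scaling. Outside the family, the 3 of 342 miRNAs with the most similar pattern were miR-30e-3p (r = 0.95), miR-450a-5p (0.95) and miR-96-5p (0.92) for miR-181c-5p. They were miR-495-3p (0.92), miR-25-3p (0.92) and miR-17-3p (0.91) for miR-181b-5p. For miR-181a-5p they were miR-382-5p (0.89), miR-409-3p (0.87) and miR-1198-5p (0.83), and for miR-181d-5p miR-669o-5p (0.93), miR-412-5p (0.88) and miR-99a-5p (0.84). All 3 listed for miR-181c-5p had 0 reads at serum 12 h, as miR-181c-5p itself did. So did miR-17-3p, miR-669o-5p and miR-412-5p. That library had few distinct family sequences, and how far these values of r rest on it was not tested.

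Of 9 miRNAs linked to TGF-beta signalling or to fibroblasts, all were tested and none passed in either direction, with 6 positive log2 fold changes and a median of 1.01, against -0.31 over all miRNAs. The highest was 1.57 for miR-29c-3p, which targets collagen messages (edgeR adjusted p = 0.310). The negative values were -0.60 for miR-29a-3p of the same family, -1.04 for miR-145a-5p and -0.34 for miR-214-3p. Of 9 lymphoid or blood miRNAs, 6 had a counted arm, 3 were tested and none passed, with a median of -1.31. The lowest was miR-155-5p, a miRNA of activated immune cells that fibroblasts also express, at -3.49 (edgeR adjusted p = 0.0869).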

How the data were processed

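Each deposited file lists the distinct 36-nt reads of a library beside their raw counts, with the adapter still attached. Library preparation is cited only by reference in the labels' protocols, and any read caller, aligner or build was not given in the sources used here. In Python 3.11.15 the adapter (at least 6 bases seen, 1 mismatch allowed per 8 bases) and marker oligonucleotides were removed and inserts of 16 to 30 nt kept. Reads were assigned by an exact match of the first 20 bases to a mature miRNA, whatever the 3′ end. The 433 mature miRNAs were defined from reads on 1174 GENCODE M21 hairpins, and family sequences follow RefSeq on GRCm38.p6. Family arms with under 10 hairpin reads were counted by RefSeq alone.

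The test was edgeR 4.0.16 (R 4.3.3; TMM, robust quasi-likelihood, experiment as a term, Benjamini-Hochberg, 2-sided) over 347 miRNAs with at least 10 CPM in 3 libraries. Its code was run on simulated counts with planted changes and no difference between the experiments, so that run does not show how the test performs on these libraries. DESeq2 1.42.0 was an alternative. Member ratios were compared by exact permutation, with no term for the experiment. Intervals are 95% and cover counting error only, since each condition has 1 library. They take every read as independent. The reads carry no molecular identifiers, so copies of the same molecule cannot be told apart and the intervals may be too narrow. A p-value that misses the threshold does not show equal levels.

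The members, lists and markers were chosen with earlier results of these data known. Every arm of the 6 hairpins is named by rule, with the 3 miRNAs most like each 5p member by Pearson's r. Alternatives were other scalings, no low-count filter, first 18 bases or whole inserts, no experiment term, permutation splits within experiments and leaving out each library. The change in member ratios between 2 libraries is an odds ratio of reads, added after the data were seen.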

Additional observations from a re-analysis of the deposited data

Results flagged for a closer look

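On contact day 0, 3 members had TMM-scaled levels far above the other 4 libraries not labelled G0. They were miR-181a-5p at 2298 CPM against 736 to 1115 CPM, miR-181b-5p at 1076 CPM against 159.7 to 332 CPM, and miR-181d-5p at 1825 CPM against 299 to 578 CPM. Contact day 0 is the only library of that group from the contact experiment, and in RPM (reads per 1000000 miRNA reads) its levels were 1297, 607 and 1030.4 RPM, against 1546, 436 and 674 RPM in the highest of the other 4.

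At serum 12 h the log2 ratio of miR-181d-5p to miR-181c-5p was 7.69, far above the 1.55 to 3.31 of the other 4 libraries not labelled G0. The library had 0 reads of miR-181c-5p and 103 of miR-181d-5p, of which 91 were 1 sequence. By the 95% level of the rule, chance flags about 1 in 20 groups.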

How the results depend on the processing

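The number of miRNAs called between G0 and the other libraries was 3, against 8 with no filter, 14 with the DESeq2 Wald test, 1 with no experiment term, and 0 to 12 when each library was left out in turn (0 without serum 0 h and without serum 24 h, 12 without serum 16 h). No 5p member was called under any of these. The log2 fold change of miR-181a-5p turned to 0.07 with total miRNA reads, 0.16 with no experiment term, 0.09 without serum 24 h and 0.33 without contact day 0, in a range of -0.41 to 0.33 over the libraries left out. That of miR-181b-5p turned to -0.06 with the first 18 bases, -0.02 without serum 0 h and -0.05 without contact day 3, in a range of -0.05 to 0.41. The log2 difference in the ratio of the Mir181a-2 to the Mir181a-1 3p arm turned to -0.12 with whole inserts, and ranged from -0.03 (without serum 20 h) to 1.38 when libraries were left out. The cause was not tested. Of the comparisons of single libraries, 4 were called, against 7 with total miRNA reads and 8 with DESeq2 size factors, and miR-181b-5p at serum 0 h over 12 h turned to 0.926 with the first 18 bases, which count 90 more reads of a 19-nt form at 12 h. The log2 difference in the ratio of miR-181c-5p to miR-181a-5p was 1.69 to 3.29 when libraries were left out. No paired analysis was possible because the labels give no replicate numbers and each condition has 1 library. Depth limits miR-181c-5p at serum 24 h and all 3p arms; at 12 h the 0 reads allow up to 18.2 RPM of miR-181c-5p, in a library with 11 distinct family sequences.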
